A study of Folsomia candida with 36 samples.

Results

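Gene expression over time was described in springtails kept on soil with imidacloprid, from 12 to 72 h of exposure. Folsomia candida is a soil-dwelling hexapod that reproduces by parthenogenesis, moults throughout adult life and serves as a test animal in soil toxicology. Imidacloprid is a neonicotinoid insecticide. It binds nicotinic acetylcholine receptors, the channels that carry fast excitatory signals in the arthropod nervous system, and keeps them active. Exposed arthropods are known to break down and export such compounds through cytochrome P450 enzymes, conjugating enzymes and membrane transporters.

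The exposed libraries were 18 of 36 in the series, with 3 at each of 12, 24, 36, 48, 60 and 72 h, chosen by the treatment and time in the labels. Each exposed library came from whole bodies of a pool of wild-type animals of the Berlin strain on LUFA2.2, a natural soil, with imidacloprid at 0.25 mg per kg dry soil, the concentration said to lower reproduction by 20% (EC20). The 18 control libraries came from the same strain and soil with water only, at the same 6 times. All pools held 70 animals and were kept at 20 °C with 16 h of light and 8 h of dark a day. The sources used here do not give the age of the animals. Every exposed library had been on the soil for at least 12 h, so within the exposed libraries time on imidacloprid and time in the jar cannot be told apart. The labels do not say how replicates were made, so p-values measure the spread between libraries, which may in part be technical. Whole bodies were sampled, so fewer cells of a type and less RNA per cell cannot be told apart.

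Exposed libraries held between 20280135 and 33852877 counts, with a median of 26374577, and control libraries between 20741822 and 42146055. At 3 counts, a gene in the smallest exposed library stood at 0.148 counts-per-million (CPM), a floor that covers counting error only. Of 28734 gene models, 19176 had enough counts in the exposed libraries to be tested. Each gene appears here under its identifier in the authors' table. The identifiers come without gene names, so gene products were not analysed here, and cell types were not checked against markers.

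A set of 108 genes that varied together stood high in 7 of the 18 exposed libraries. The mean log2 CPM over the set lay between 1.18 and 3.08 in 12 h replicates 2 and 6, 24 h replicate 3, 60 h replicates 3 and 5, 72 h replicate 1 and library 71 of 72 h, and between -3.15 and -2.85 in the other 11. In control libraries it lay above 0 in 3 of 18. None of the 108 genes was called in the trend over time or between 72 and 12 h, where 3.69% and 0.198% of all tested genes were called. Their fitted change over the course had a median of 0.99 in log2 units with a median standard error of 1.36. With shares this low and errors this large, the absence of calls says little about the set. The libraries with a raised set are unevenly spread over the time points, at 2 of 3 for 12, 60 and 72 h, 1 of 3 for 24 h and 0 for 36 and 48 h, and the part of this set in the results below was not tested beyond the values given beside them. The 72 h group has 2 libraries that both carry the replicate number 4, told apart by their library numbers 71 and 72. They differed as much as other replicates did (chi-square per degree of freedom 112, against 30.2 to 367 over 18 pairs of libraries) and were counted as 2 replicates.

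The linear trend asks which transcripts had a rising or falling slope over the hours on imidacloprid soil. It does not ask whether they moved the same way at every step. With time, 492 genes rose and 215 fell, 707 in all or 3.69% of the genes tested (edgeR quasi-likelihood test, Benjamini-Hochberg adjusted p under 0.05). The rising genes were 2.57% and the falling genes 1.12% of those tested. The fitted change from 12 to 72 h had a median of 1.43 in log2 units among the rising genes, which is 2.69-fold, and of -1.04 among the falling genes, which is 2.05-fold lower. Over all tested genes the median was 0.03. An unadjusted p under 0.05 was found in 3986 genes, 2528 with a positive and 1458 with a negative slope.

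At the median the rising genes had the larger change and the lower level, and these differences between the sets were not tested. A change of at least 2-fold was fitted in 402 of the 492 rising genes (81.7%) and in 111 of the 215 falling genes (51.6%), and one of at least 4-fold in 120 of 492 and 52 of 215. The middle part of the rising genes lay between 1.06 and 1.97 (lower and upper quartile, log2), and that of the falling genes between -1.97 and -0.65, so the outer quartiles had the same size. Mean levels over the 18 exposed libraries had a median of 7.15 CPM in rising genes and 29.1 CPM in falling genes. Among the rising genes 68 averaged under 1 CPM and 60 at least 100 CPM, and among the falling genes 16 and 41. In the lowest quartile of genes by level, 128 rose and 26 fell, and in the highest quartile 118 rose and 85 fell. The percentage called was 3.21 in the lowest quartile and 4.23 in the highest, while the median standard error of the fitted change was 0.51 and 0.20 in log2 units. Called genes in the lowest quartile had a median change of 1.93 in either direction, against 0.99 in the highest. For 8407 genes (43.8%) the 95% interval of the fitted change lay wholly within a 2-fold rise or fall, and for the other genes it reached beyond.

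Summed over the set, rising genes took a growing part of all counts, a measure weighted by genes of high level. In order of time, from 12 to 72 h, together they took 3.08% ± 1.09, 3.29% ± 0.378, 3.47% ± 0.709, 4.9% ± 1.82, 6.88% ± 2.34 and 7.95% ± 1.29 of all counts (SD, n = 3 each). The falling genes took 3.1% ± 0.789, 2.37% ± 0.0252, 1.9% ± 0.207, 1.75% ± 0.259, 1.27% ± 0.0777 and 1.16% ± 0.0751 at the same times. Single genes of high level weigh on these sums. From 12 to 72 h the exposed mean went from 10800 to 27300 CPM in Fcan01_14722 and from 6230 to 16300 CPM in Fcan01_07074, both rising. In the falling Fcan01_15132 it went from 12000 to 1530 CPM. The shares come from the libraries in which the genes were called, so they describe the calls and are no test.

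At the median, most of the rise came after 36 h, and the largest step of the fall was the one into 60 h. The timing of the 2 sets was not compared in a test. Both courses are read from a 12 h mean that replicate 2 raised. For the falling set the 12 h libraries lay at 0.17 (replicate 2), -0.06 and -0.09, and those of 24 h at -0.13, -0.12 and -0.11. Whether the fall had begun by 24 h therefore rests on that library. In order of time, from 24 to 72 h, the median gene of the rising set stood 0.03, 0.15, 0.58, 0.99 and 1.26 above its 12 h mean in log2 units. The median gene of the falling set differed from its 12 h mean by -0.11, -0.28, -0.48, -0.84 and -0.92. The largest upward step of a rising gene was the one that ended at 48 h in 164 genes (33.3%) and at 60 h in 176 (35.8%), and the one that ended at 24 h in 41. In falling genes the step that ended at 60 h was the largest in 83 (38.6%), against 43 for the step that ended at 24 h. Group means rose at every one of the 5 steps in 82 of the 492 rising genes, and fell at every one in 35 of the 215 falling genes. The 72 h mean was the highest of the 6 in 409 rising genes, and the lowest of the 6 in 126 falling genes.

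Single libraries followed this course with a wide spread at 48 and 60 h. The median gene of the rising set stood at 0.16, 1.07 and 0.48 above the 12 h mean in the 3 exposed libraries of 48 h, at 1.03, 1.42 and 0.54 in those of 60 h, and at 1.44, 1.16 and 1.17 in those of 72 h (log2). The 12 h libraries themselves lay at 0.38, -0.14 and -0.20. The high value at 12 h belongs to replicate 2, which overlaps the lower of the 48 h libraries. In 454 of the rising genes (92.3%) all 3 libraries of 72 h lay above all 3 of 12 h, and in 197 of the falling genes (91.6%) all lay below. Over all tested genes this held for 1739 (9.07%) and 971 (5.06%).

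**Figure D1:**
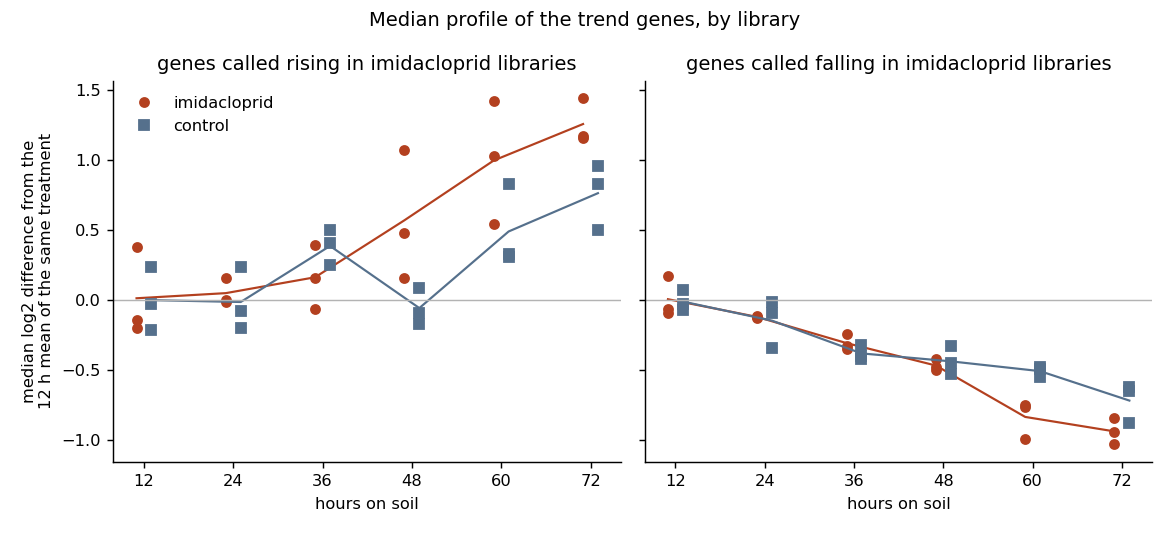
Each point is 1 library and gives the median, over the 492 rising genes (left) or the 215 falling genes (right), of the log2 difference from the 12 h mean of the same treatment, against hours on soil; lines join the means of the 3 libraries. Exposed libraries of 72 h lie between 1.16 and 1.44 for the rising genes and between -1.03 and -0.84 for the falling genes, and control libraries move the same way.

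How many genes were called depended strongly on single libraries. The count ranged from 344 without 72 h replicate 1 to 2373 without 12 h replicate 2, when each of the 18 libraries was left out in turn. Without 12 h replicate 2, edgeR called 1799 rising and 574 falling genes, among them all 492 and 194 of those called with every library. It was 410 without 12 h replicate 5, 444 without 24 h replicate 2, 445 without 24 h replicate 3, 456 without 60 h replicate 1 and also without 60 h replicate 3, 392 without library 71 of 72 h and 403 without library 72. Without the 7 libraries with a raised co-varying set, which leaves 1 library each at 12, 60 and 72 h, 23 genes were called, and with the set's mean as a covariate 596, of which 375 rising and 182 falling genes were shared. Leaving out a whole time point gave 1717 genes without 12 h, 169 without 24 h, 376 without 36 h, 694 without 48 h, 240 without 60 h and 85 without 72 h. In these runs rising genes outnumbered falling genes, except without 72 h (42 and 43). Samples taken 12 h apart fall alternately at opposite times of day, and with alternate time points as a covariate 466 genes were called, of which 307 rising and 136 falling genes were shared.

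**Figure D2:**
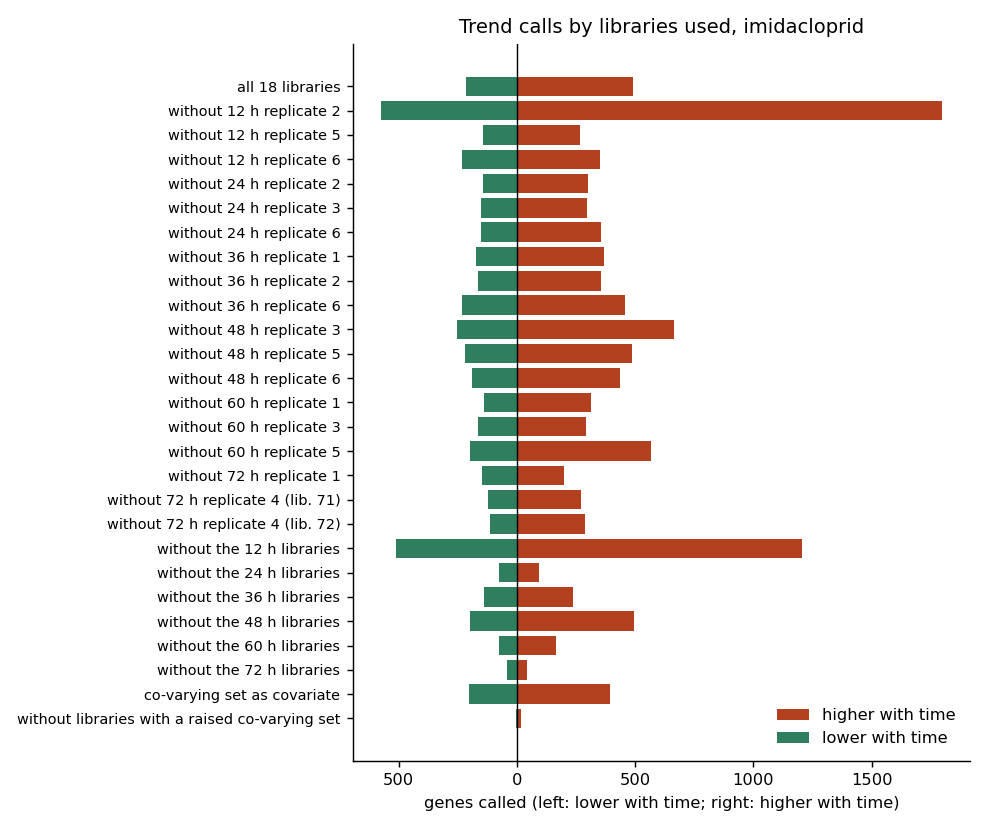
Bars give the number of genes called higher (right) and lower (left) with time in exposed libraries, for all 18 libraries and with single libraries, whole time points or the libraries with a raised co-varying set left out, or that set as a covariate. The bar without 12 h replicate 2 is the longest, at 1799 higher and 574 lower, and that without the libraries with a raised set is the shortest, at 19 and 4.

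Fcan01_26995 had the largest fitted rise among called genes of at least 1 CPM whose 72 h libraries all lay above those of 12 h. In exposed libraries it stood at 1.83, 0.63 and 1.3 CPM at 12 h, 0.904, 1.13 and 0.991 at 24 h, 1.17, 1.58 and 2.14 at 36 h, 17.3, 13.4 and 4.77 at 48 h, 48.4, 17.8 and 8.29 at 60 h, and 48.4, 45.1 and 33.6 at 72 h. Its level was flat up to 36 h and all later libraries lay above all earlier ones. The fitted change was 5.86 ± 0.64 in log2 units (SE, 58.2-fold, edgeR adjusted p = 0.000115), and it stayed called without each single library, at 5.55 to 6.42. Control libraries held 1.01, 1.34 and 0.597 CPM at 12 h and 30.5, 20.0 and 28.4 CPM at 72 h, with a fitted change of 5.83 ± 0.61. The slopes of the 2 treatments differed by 0.03 ± 0.91 (edgeR adjusted p = 0.996), an interval that still allows a difference of more than 2-fold either way.

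Fcan01_17222 followed, at a level near the floor early on. Exposed libraries held 0.588, 0.33 and 0.0419 CPM at 12 h, 0.484, 0.206 and 0.634 at 24 h, 1.71, 1.33 and 0.833 at 36 h, 0.955, 3.54 and 2.18 at 48 h, 13.2, 18.4 and 1.92 at 60 h, and 11.1, 6.78 and 6.02 at 72 h. The 36 h libraries all lay above those of 12 and 24 h, and 2 of 3 libraries of 60 h were the highest of the course. The fitted change was 5.62 ± 0.75 (49.3-fold, edgeR adjusted p = 0.000504) in exposed and 3.56 ± 0.73 in control libraries, with a difference between the slopes of 2.06 ± 1.07 that did not pass (edgeR adjusted p = 0.887). Since 1 library of 12 h lay under the floor, the size of the fold is uncertain.

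The rising genes of highest level were Fcan01_14722 and Fcan01_07074. Fcan01_14722 stood at 19500, 4810 and 8210 CPM in exposed libraries at 12 h, 9830, 10900 and 14300 at 24 h, 12200, 11400 and 6880 at 36 h, 12300, 27400 and 10100 at 48 h, 21000, 28700 and 13000 at 60 h, and 38300, 22000 and 21700 at 72 h. The 72 h libraries all lay above those of 12 h, where replicate 2 was the highest. Its fitted change of 1.4 ± 0.39 (2.64-fold) had an edgeR adjusted p of 0.04997, at the edge of the threshold. The call was lost when any of 13 of the 18 libraries was left out, and held only without 12 h replicate 2, 48 h replicate 3, 5 or 6, or 60 h replicate 5. The change stayed between 1.18 (without 72 h replicate 1, edgeR adjusted p = 0.16) and 1.87. It was also lost without the libraries of 24, 36, 48, 60 or 72 h, at 1.21 to 1.41, without those with a raised co-varying set (1.78, edgeR adjusted p = 0.237), without the libraries with irregular titles (12 h replicate 5 and 60 h replicate 1, with both libraries numbered 4 at 72 h summed; 1.23, edgeR adjusted p = 0.246) and with the co-varying set as a covariate (1.36, edgeR adjusted p = 0.0643). Control libraries went the same way, by 1.05 ± 0.43 (edgeR adjusted p = 0.299).

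Fcan01_07074 stood at 9080, 4200 and 5410 CPM in exposed libraries at 12 h, 4910, 5320 and 4880 at 24 h, 6780, 8120 and 3520 at 36 h, 4560, 15600 and 9160 at 48 h, 12700, 21100 and 8060 at 60 h, and 20300, 13500 and 15200 at 72 h. The libraries of 72 h lay above all those up to 36 h. The fitted change was 1.68 ± 0.37 (3.19-fold, edgeR adjusted p = 0.0166). Its call was lost without 72 h replicate 1, at 1.56 (edgeR adjusted p = 0.0523), and without the libraries of 24, 60 or 72 h, at 1.53, 1.58 and 1.6. It was lost as well without the libraries with a raised co-varying set (2.06, edgeR adjusted p = 0.151), without irregular titles (1.62, edgeR adjusted p = 0.128) and with log2 hours (1.48, edgeR adjusted p = 0.0789). In control libraries the change was 0.81 ± 0.36 (edgeR adjusted p = 0.343), and the slopes differed by 0.86 ± 0.52 (edgeR adjusted p = 0.887).

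Fcan01_17511 and Fcan01_17513 had the largest fitted falls under the same rule, and their 12 h values rested on replicate 2. Fcan01_17511 stood at 46.3, 4.71 and 2.22 CPM in exposed libraries at 12 h, 3.45, 2.4 and 3.53 at 24 h, 7.43, 1.68 and 2.98 at 36 h, 0.716, 3.12 and 1.62 at 48 h, 0.671, 1.04 and 0.236 at 60 h, and 0.973, 0.379 and 0.104 at 72 h. Replicate 2 of 12 h, the first of these values, lay far above the others, and the 60 and 72 h libraries lay below all of 12, 24 and 36 h. Its fitted change was -5.04 ± 0.81 (edgeR adjusted p = 0.00248), and -3.37 without 12 h replicate 2. In the lowest 72 h library it had 3 counts, which is at the floor, so the fold is uncertain. The change in control libraries was -4.09 ± 0.73 (edgeR adjusted p = 0.00857). Fcan01_17513 stood at 196, 23.3 and 13.1 CPM in exposed libraries at 12 h, 21.2, 15.7 and 25.9 at 24 h, 36.5, 13.6 and 12.8 at 36 h, 7.64, 21.4 and 10.8 at 48 h, 4.7, 6.39 and 2.71 at 60 h, and 7.53, 1.69 and 3.43 at 72 h. Its course had the same shape, with 12 h replicate 2 the highest. The fitted change was -4.09 ± 0.67 (17.1-fold lower, edgeR adjusted p = 0.00261), or -2.77 without that library, and -4.62 ± 0.62 in control libraries. Both calls were lost without the 7 libraries with a raised co-varying set, at -4.21 and -3.06.

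The falling genes of highest level were Fcan01_15132 and Fcan01_21531. Fcan01_15132 stood at 19100, 10700 and 6300 CPM in exposed libraries at 12 h, 5600, 7050 and 6680 at 24 h, 4530, 4410 and 1170 at 36 h, 1450, 8540 and 3290 at 48 h, 595, 3670 and 847 at 60 h, and 2420, 1420 and 748 at 72 h. All libraries of 60 and 72 h lay below all of 12 and 24 h, while those of 48 h spanned both ranges. In exposed libraries the fitted change was -2.89 ± 0.60 (7.39-fold lower, edgeR adjusted p = 0.0119), and in control libraries -2.38 ± 0.49 (5.21-fold lower, edgeR adjusted p = 0.022). Fcan01_21531 stood at 2360, 723 and 1300 CPM in exposed libraries at 12 h, 1020, 1230 and 894 at 24 h, 955, 958 and 515 at 36 h, 622, 1120 and 717 at 48 h, 353, 639 and 393 at 60 h, and 676, 519 and 314 at 72 h. Again no library of 60 or 72 h reached a library of 12 or 24 h. Over the course it changed by -1.59 ± 0.33 (3-fold lower, edgeR adjusted p = 0.011) in exposed and -1.45 ± 0.27 in control libraries. Both stayed called without each single library. Fcan01_15132 was not called without the 12 h libraries (-2.57), those of 72 h (-3.03) or those with irregular titles (-2.62), and Fcan01_21531 not without those of 60 h (-1.43) or 72 h (-1.81). Without the 7 libraries with a raised co-varying set neither was called, at -3.44 and -1.41.

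**Figure D3:**
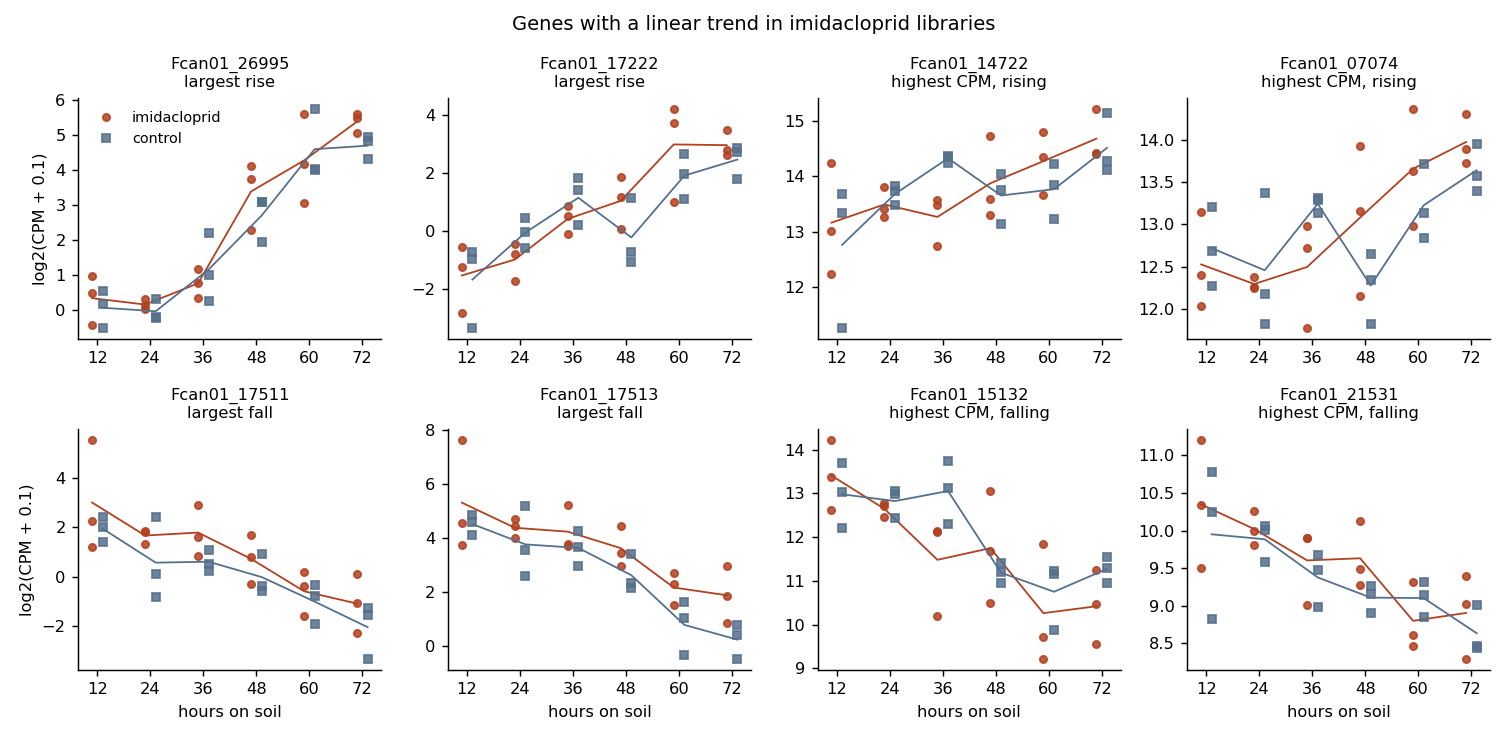
Points are libraries, with log2(CPM + 0.1) against hours on soil for the 8 genes named for the trend, exposed in red circles and control in blue squares, and lines join the means of 3 libraries. The rising genes in the upper row and the falling genes in the lower row move in the same direction in both treatments, and 12 h replicate 2 stands far above the other exposed libraries of Fcan01_17511 and Fcan01_17513.

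The contrast of 72 h with 12 h compares only the ends of the course and found far fewer genes than the line. Exposed animals at 72 h had higher levels of 24 genes and lower levels of 14 than at 12 h, 38 in all or 0.198% of the genes tested (edgeR adjusted p under 0.05). Of these, 23 of the 24 higher and all 14 lower genes were also called in the trend, which uses the same libraries. An unadjusted p under 0.05 was found in 2001 genes. The 2 time points lie 60 h apart, at opposite times of day where sampling kept to 12 h, so hours on soil and time of day cannot be told apart in this contrast. Leaving out any single library of 12 or 72 h lowered the count, to between 1 without 12 h replicate 6 and 14 without 12 h replicate 5. Without the libraries with a raised co-varying set edgeR called 0 genes, where 958 had an unadjusted p under 0.05, and with the set as a covariate 30. Without libraries with irregular titles it called 0 as well, where 1093 had an unadjusted p under 0.05. DESeq2 called 452 and limma-voom 32.

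Fcan01_26995 was also the called gene with the largest rise between the ends, at 5.08 ± 0.66 in log2 units (33.8-fold, edgeR adjusted p = 0.00494). Without 12 h replicate 6 it was no longer called, at 5.11 (edgeR adjusted p = 0.0556). Fcan01_25592 was next, with 2.51, 4.64 and 2.74 CPM at 72 h and 0.131, 0.09 and 0.0839 CPM at 12 h in exposed libraries. The 2 groups did not overlap, and the levels between were 0.258, 0.582 and 0.436 CPM at 24 h, 0.721, 0.791 and 0.317 at 36 h, 0.716, 2.1 and 1.09 at 48 h, and 4.54, 5.04 and 1.42 at 60 h. The 12 h libraries held 4, 3 and 2 counts, so the fitted change of 4.95 ± 0.64 (edgeR adjusted p = 0.00494) depends on how low counts are treated and is no bound. Its call was also lost without 12 h replicate 6 (4.85, edgeR adjusted p = 0.0556).

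Among called genes, Fcan01_11408 had the largest fall between the ends. Exposed libraries held 1.76, 0.843 and 1.07 CPM at 72 h and 12.3, 8.01 and 16.8 CPM at 12 h. The step lay early, since the 24 h libraries already stood at 3.19, 2.95 and 2.26 CPM, below all those of 12 h. The change was -3.33 ± 0.48 (10-fold lower, edgeR adjusted p = 0.0143). It was not called without 12 h replicate 6 (-3.05), without library 71 (-3.12) or without library 72 of 72 h (-3.25), with edgeR adjusted p up to 0.0832. Control libraries held 0.64, 0.484 and 1.5 CPM at 72 h and 6.56, 18.6 and 4.27 CPM at 12 h, a change of -3.52 ± 0.66 (edgeR adjusted p = 0.0163).

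Fcan01_01460 was the next among called genes that fell between the ends. Exposed libraries held 29.0, 13.9 and 20.2 CPM at 72 h and 371, 126 and 90.5 CPM at 12 h, and the groups did not overlap. The change of -3.22 ± 0.61 (9.29-fold lower) had an edgeR adjusted p of 0.0476. It was lost without any single one of the 6 libraries, at -3.56 to -2.36, and without 12 h replicate 2 it was -2.36 (edgeR adjusted p = 0.1). In the trend it fell by 3.14 on the log2 scale, with an SE of 0.47 (edgeR adjusted p = 0.00122). Larger fitted differences that did not pass were those of Fcan01_17511 and Fcan01_17513, at -5.18 and -4.20 (edgeR adjusted p = 0.085 each).

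A test of any difference between the 6 time points called 44 genes (0.229%), of which 37 were also called in the trend, 24 between 72 and 12 h, and 7 in neither. The smallest adjusted p values were those of Fcan01_26995 (edgeR adjusted p = 0.00388) and Fcan01_11408 (edgeR adjusted p = 0.00955). Without 12 h replicate 6, the test called 7 genes and Fcan01_11408 was not among them (edgeR adjusted p = 0.0519), and without 48 h replicate 5 it called 76. It called 7 to 28 without any one of 24 h replicates 2, 3 and 6, 36 h replicates 1 and 2, 60 h replicates 1 and 3, 72 h replicate 1 and library 72 of 72 h. With the co-varying set as a covariate it called 16. Departure from a straight line was called in 0 genes (0%). The unadjusted p was under 0.05 in 1011, with a smallest adjusted p of 0.109, where DESeq2 called 109. Of the variance of log2 CPM over all tested genes in exposed libraries, 36.5% went with the 6 time points and 11.2% with a line in hours. In control libraries these shares were 41.7% and 9.93%. With 3 libraries a group, group means or a line take up part of the variance even where time has no effect. The shares are therefore no measure of such an effect.

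Between successive time points, edgeR called genes only at the steps into and out of 60 h. From 12 to 24 h, 24 to 36 h and 36 to 48 h it called 0 genes (0%), where the unadjusted p was under 0.05 in 894, 611 and 595, and DESeq2 called 31, 4 and 10. At 60 h, 11 genes (0.0574%) were lower than at 48 h and 0 higher. At 72 h, 3 genes (0.0156%) were higher than at 60 h and 0 lower, and all 3 were among the 11. None of the 11 was called in the trend, where 3.69% of all tested genes were, and none belonged to the 108 co-varying genes among the 19176 tested. With 11 genes and shares this low, neither absence sets them apart.

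The 11 genes shared a trough at 60 h that all 3 exposed libraries showed. Their mean log2 CPM was 1.57, 0.89 and 1.67 in the exposed libraries of 60 h and between 3.25 and 5.98 in the other 15. For all 11 genes each 60 h library lay below every other exposed library. The genes were called for low values at 60 h in these libraries, so this separation describes the calls and is no test. Its share over all tested genes is not given here. Control libraries, which had no part in the choice, held 0.24, 5.57 and 2.58 at 60 h and 5.39, 3.89 and 0.51 at 48 h. In 5 of the 18 control libraries, of 12, 24, 48 and 60 h, the mean lay below the 3.25 of the lowest exposed library outside 60 h. Leaving out single libraries of 48 or 60 h gave 0 to 11 genes for this step, with 0 without 60 h replicate 1 or 60 h replicate 3 (1356 and 385 at an unadjusted p under 0.05), and with the co-varying set as a covariate 2.

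Among the 11 called genes, Fcan01_05584 had the largest fall between 60 and 48 h. Exposed libraries held 0.767, 0.739 and 0.472 CPM at 60 h and 26.2, 67.2 and 89.9 CPM at 48 h, and at 72 h they stood at 11.5, 36.9 and 33.7 CPM. The 60 h libraries all lay under 1 CPM, and the lowest of the other exposed libraries stood at 4.7 CPM. The change from 48 to 60 h was -6.53 ± 0.96 (92.7-fold lower, edgeR adjusted p = 0.015). The call was lost without any single library of 60 h or without 48 h replicate 6, with edgeR adjusted p up to 0.174. Control libraries held 0.2, 48.4 and 5.55 CPM at 60 h and 38.1, 7.73 and 0.31 CPM at 48 h, and so spanned the whole range within a time point. Fcan01_27848 had 2, 6 and 3 counts in the exposed libraries of 60 h, against 146, 102 and 163 at 48 h. Its 60 h libraries stood at 0.0639, 0.261 and 0.0885 CPM, around the floor, so the change of -5.31 ± 0.74 (edgeR adjusted p = 0.0117) has an uncertain size. Its call was lost without the same 4 libraries, with edgeR adjusted p up to 0.136, and both calls were lost with the co-varying set as a covariate (-6.23 and -5.21, edgeR adjusted p = 0.0727 each).

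Among the 3 called genes, Fcan01_21805 and Fcan01_02725 had the largest rises between 72 and 60 h. Fcan01_21805 stood at 13.0, 22.0 and 20.5 CPM at 72 h and 0.894, 0.608 and 1.15 CPM at 60 h in exposed libraries, a change of 4.37 ± 0.63 (20.6-fold, edgeR adjusted p = 0.0276). Fcan01_02725 stood at 76.2, 42.5 and 63.3 CPM at 72 h and 4.79, 2.78 and 5.46 CPM at 60 h, a change of 3.80 ± 0.53 (13.9-fold, edgeR adjusted p = 0.0276). Both were back within the range of 12 to 48 h at 72 h. Neither was called without any single one of the 6 libraries, with edgeR adjusted p between 0.0661 and 0.402. Without single libraries the step had 0 or 1 called genes. Fcan01_05584 and Fcan01_27848 differed by 5.38 and 4.02 between 72 and 60 h and did not pass (edgeR adjusted p = 0.0955 and 0.138).

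**Figure D4:**
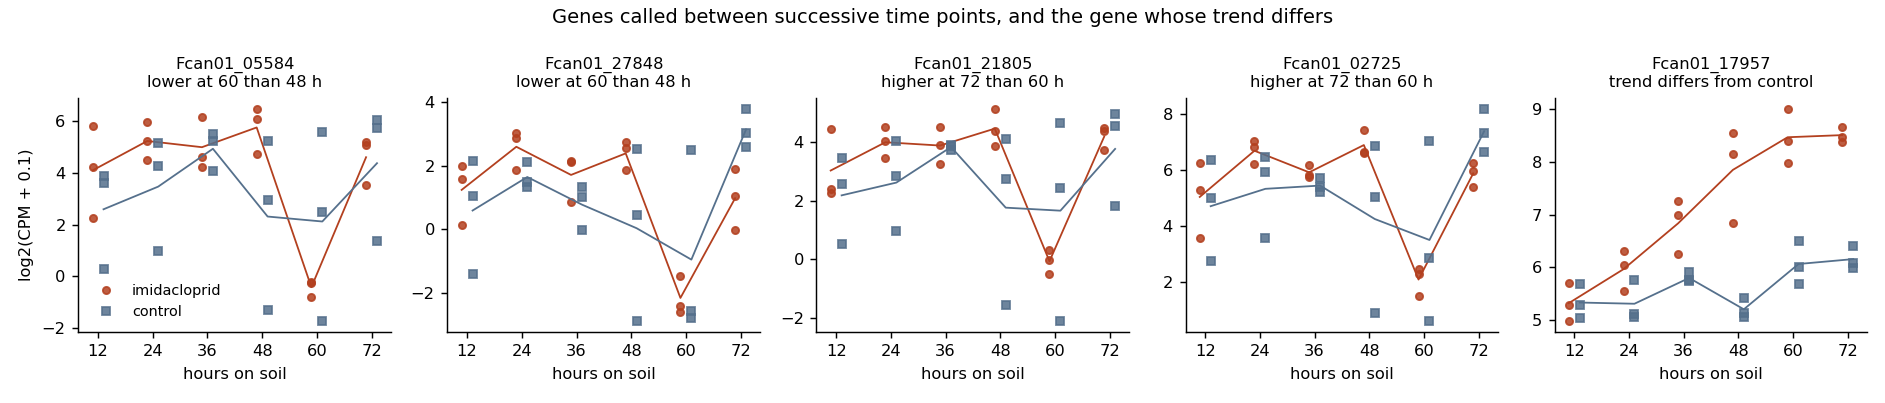
Points are libraries, with log2(CPM + 0.1) against hours on soil for the 4 genes named for the steps around 60 h and for Fcan01_17957, exposed in red circles and control in blue squares, and lines join the means of 3 libraries. The 3 exposed libraries of 60 h form a trough in the first 4 panels, where control libraries are widely scattered, and in the last panel, from 36 h on, every exposed library lies above every control library of the same time point.

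The genes called in exposed animals were then read in the control libraries, which had no part in the calls. Of the 492 rising genes 487 were tested in control libraries, and 473 of them (97.1%) had a positive slope there. Of the 215 falling genes 214 were tested, and 213 (99.5%) had a negative slope. Over all 18812 genes tested in both treatments, the slopes had the same sign in 71.3%, with a Pearson correlation across genes of 0.52 and a Spearman correlation of 0.56. Genes are not independent replicates, so these correlations describe the libraries and have no p.

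Genes chosen on the exposed libraries had the larger median slope there, and genes chosen on the control libraries had it in control animals. At the median, the fitted change was 1.42 in exposed and 0.70 in control libraries for the rising genes, and -1.03 and -0.69 for the falling genes. In control libraries 51 of the rising genes (10.5%) and 58 of the falling genes (27.1%) were called in the same direction, and 0 in the opposite direction, where the trend called 198 genes in all (1.04%), 78 rising and 120 falling. Read the other way, 51 of the 78 genes rising in control animals (65.4%) and 58 of the 120 falling ones (48.3%) were called in exposed animals. The median fitted changes of the 78 were 1.79 in exposed and 1.94 in control libraries, and those of the 120 were -1.19 and -1.74. The control trend had 87 and 107 calls without control 12 h replicate 3 or 6, and 94 and 96 without control 72 h replicate 3 or 4.

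**Figure D5:**
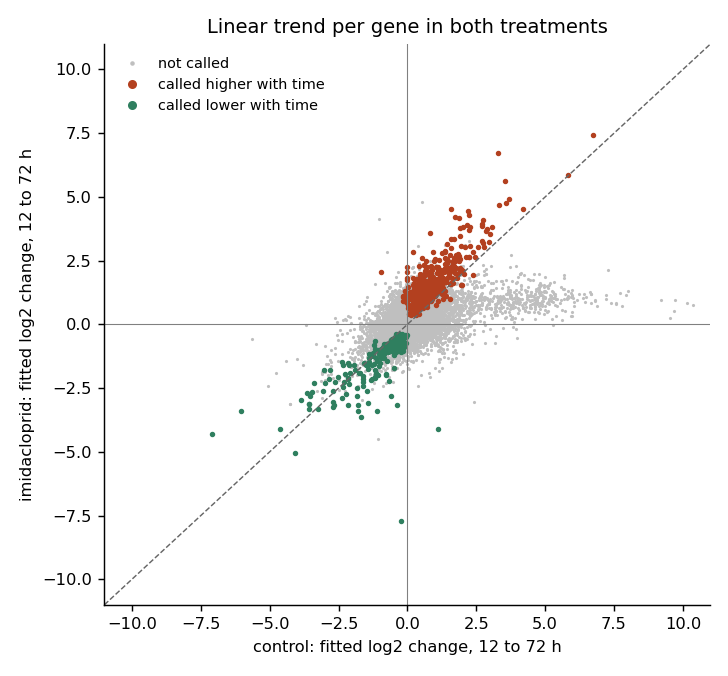
Each point is a gene tested in both treatments, with the fitted log2 change from 12 to 72 h in exposed libraries (vertical) against that in control libraries (horizontal); the dashed line marks equal change. Called rising genes lie almost all in the upper right and called falling genes in the lower left, at 97.1% and 99.5% with the same direction, and an arm of uncalled genes reaches to the right.

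At the single time points the median rising gene parted most between treatments at 48 h. It stood at 0.16, 1.07 and 0.48 above the 12 h mean in exposed libraries of 48 h and at 0.09, -0.09 and -0.17 in control libraries (log2), without overlap. At 60 h the values were 1.03, 1.42 and 0.54 in exposed and 0.33, 0.31 and 0.83 in control libraries, and overlapped. At 72 h they were 1.44, 1.16 and 1.17 in exposed and 0.83, 0.50 and 0.96 in control libraries, again without overlap. For the falling genes the 72 h values overlapped, at -0.84, -1.03 and -0.94 in exposed and -0.88, -0.62 and -0.65 in control libraries. The genes were chosen on the exposed libraries, so these differences were not tested.

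The genes called between 72 and 12 h in exposed animals all had the same direction in controls, 24 of 24 higher and 14 of 14 lower genes, and 13 and 10 of them were called there. Over all genes tested in both treatments this contrast had the same sign in 74.6%. The contrast called 380 genes (2%) in control animals, 247 higher and 133 lower at 72 h. This is more than the 38 of exposed animals, while the trend called fewer genes in control animals, and whether these counts differ beyond chance was not tested. Of the 246 of these higher genes that were tested in exposed libraries 240 were also higher there, and of the 133 lower genes 132 were also lower, with median changes of 0.81 in exposed against 1.96 in control libraries, and of -1.10 against -1.79. Leaving out single control libraries gave 142 and 102 genes without control 12 h replicate 3 or 6, 67 and 121 without control 72 h replicate 3 or 4, and up to 420.

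Whether the slopes differed between treatments was tested gene by gene over all 36 libraries. EdgeR called 1 of 19600 genes (0.0051%), where DESeq2 called 4, and 702 had an unadjusted p under 0.05. For the change between 72 and 12 h it called 0 genes (0%), with an unadjusted p under 0.05 in 503 and a smallest adjusted p of 0.0719, where DESeq2 called 12 and limma-voom 0. The median standard error of a difference of slopes was 0.45 in log2 units, so differences of this size and well above it could not be told from none. That of Fcan01_17222, at 2.06 ± 1.07, did not pass. Among the 492 rising genes the difference had a median of 0.67, and 90 had an unadjusted p under 0.05, all with the steeper rise in exposed animals. Among the 215 falling genes the median was -0.27, and 33 had an unadjusted p under 0.05, 30 of them with the steeper fall in exposed animals. Exposed libraries both chose these genes and enter the difference, so these counts are a description.

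Fcan01_17957 was the gene whose slope differed. In exposed libraries it stood at 52.0, 31.4 and 38.7 CPM at 12 h, 65.6, 78.9 and 46.8 at 24 h, 128, 153 and 76.0 at 36 h, 115, 377 and 283 at 48 h, 339, 517 and 254 at 60 h, and 406, 356 and 335 at 72 h. In control libraries it stood at 32.6, 51.3 and 38.7 CPM at 12 h, 54.0, 33.3 and 34.3 at 24 h, 53.8, 59.9 and 53.1 at 36 h, 33.1, 42.5 and 35.2 at 48 h, 64.0, 51.5 and 90.2 at 60 h, and 85.1, 63.1 and 67.2 at 72 h. The treatments overlapped at 12 and 24 h, and from 36 h on every exposed library lay above every control library of its time point. The fitted change was 3.58 ± 0.38 (11.9-fold, edgeR adjusted p = 0.000115) in exposed and 0.84 ± 0.24 (1.78-fold, edgeR adjusted p = 0.104) in control libraries. The slopes differed by 2.73 ± 0.45 (6.66-fold, edgeR adjusted p = 0.0121). The difference was not called without exposed 12 h replicate 6, at 2.68 (edgeR adjusted p = 0.05), and stayed between 2.56 and 2.9 without each of the 36 libraries. The difference between treatments in the change from 12 to 72 h was 2.35 ± 0.47 and did not pass (edgeR adjusted p = 0.263).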

How the data were processed

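The authors deposited 1 table of estimated counts per gene model for 36 libraries. The labels' protocols name TRIzol for RNA extraction and a stranded TruSeq kit for the libraries. Per these protocols reads were trimmed with Trim Galore (Cutadapt, version given as 0.6.7) and assigned to the transcriptome with Salmon 1.4.0. Per the labels' protocols DESeq2 1.28.1 was used for normalization, but the deposited values differ in total between libraries and were treated as counts before normalization. All were whole numbers. The sources used here do not name the transcriptome release. Since Salmon estimates how reads divide among similar transcripts, genes with near-identical copies have uncertain counts.

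Tests used edgeR 4.0.16 in R 4.3.3: filterByExpr (minimum count 10, minimum total 15), TMM scaling (factors 0.887 to 1.076), robust quasi-likelihood fits to the 18 exposed or 18 control libraries, or to all 36 for differences between treatments, and Benjamini-Hochberg adjustment within each comparison at 0.05. Slopes on hours are given as the fitted log2 change over 60 h. Standard errors are the change divided by the root of the F statistic. CPM uses TMM-scaled library sizes, and log2 CPM a prior count of 2. The co-varying set came from complete-linkage clustering (height 0.5) of the 171 genes whose log2 CPM had a variance over 4, as the largest cluster. DESeq2 1.42.0 and limma-voom (limma 3.58.1) were alternatives. The steps were tested on simulated data.

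Named genes had at least 1 CPM on average: the 2 called genes of largest change per direction and comparison, with 72 h libraries outside the range of 12 h for the trend and for the contrast of the ends, the 2 of smallest p for any difference, and the 2 of highest level per direction in the trend. Of the identifiers, 0 were found in a table of 27231 genes of the species, so gene lists by product name were not run. The comparisons, lists and rules were chosen with earlier results of these data known.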

Additional observations from a re-analysis of the deposited data

Results flagged for a closer look

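The slope of Fcan01_17957 over time differed between treatments, which was the 1 such difference that passed the test. The fitted change from 12 to 72 h was 3.58 ± 0.38 in exposed and 0.84 ± 0.24 in control libraries in log2 units (SE), and the difference was 2.73 ± 0.45 (edgeR adjusted p = 0.0121). With a block for the replicate number it was 3.21 and no longer passed (edgeR adjusted p = 0.0778).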

How the results depend on the processing

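Of the 503 values of single named genes under alternatives, 394 kept their direction and side of the threshold, 109 lost the call and 0 reversed. Values for counts follow, and the causes of their changes were not tested. DESeq2 called more genes throughout: 1531 in the exposed trend (1001 higher, 530 lower), 452 between 72 and 12 h, 976 for any difference, 109 for departure from a line, 31, 4, 10, 37 and 16 at the 5 successive steps, 642 in the control trend, 1288 between 72 and 12 h in controls, 4 for the difference of slopes and 12 for that of the ends. With at least 5 CPM in 3 libraries, 13 genes were called between 72 and 12 h and 121 in the control trend. Limma-voom called 28 genes for any difference.

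The exposed trend had 1260 calls in a fit of all 36 libraries, 274 with log2 hours, 452 as a contrast of the 6 group means, 466 with alternate time points as a covariate, 124 without libraries with irregular titles (12 h replicate 5, 60 h replicate 1, and both libraries numbered 4 summed), and 23 without those with a raised co-varying set. It had 1717, 169, 376, 240 and 85 without the libraries of 12, 24, 36, 60 and 72 h. The contrast of 72 with 12 h had 176 calls in the fit of all 36 libraries and 8 in a fit of its 6 libraries, and 0 without irregular titles (1093 genes at an unadjusted p under 0.05) and 0 without libraries with a raised set (958). With that set as a covariate, any difference had 16 calls and the step from 48 to 60 h 2. Some of these choices were added after seeing the data: the covariate for alternate time points, the set as a covariate for any difference and for the steps, limma-voom for the control trend, leaving out control libraries, all alternatives to the percentages below, and leaving out exposed libraries for any difference, departure from a line and the steps.

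With single libraries left out, calls ranged from 344 to 2373 in the exposed trend (392 and 403 without library 71 or 72), 1 to 14 between 72 and 12 h (9 and 4), 7 to 76 for any difference (19 without library 72), 0 to 9 for departure from a line, 0 to 11 for 60 against 48 h, 0 to 1 for 72 against 60 h (0 without library 71 and 0 without 72), 87 to 219 in the control trend, 67 to 420 between 72 and 12 h in controls, 0 to 4 for the difference of slopes (4 without library 72) and 0 to 1 for that of the ends. The percentage of rising genes with the same direction in controls was 99 with at least 5 CPM, 95.2 with DESeq2, 94.2 with no filter on low counts and 90 to 98.5 without single libraries. For falling genes it was 100, 96.6 with DESeq2, and 94.4 to 100 without single libraries (100 without library 71 or 72).

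With the replicate number as a block, the exposed trend had 4 calls (1371 genes at an unadjusted p under 0.05) and the difference of slopes 0 (276), and all named genes of either lost their call, as did those of the results that follow. The blocked fits of the other results, added after seeing the data, called 0 genes for 72 against 12 h (483 genes at an unadjusted p under 0.05), 0 for any difference (553), 0 for 60 against 48 h (639), 0 for 72 against 60 h (206), and 0 for departure from a line, the other 3 steps and the difference of the ends (296 to 647). Same-numbered libraries did not deviate together (18 pairs, correlations from -0.66 to 0.38, median -0.09, and 0 libraries closest to their own number). Each deviation was taken within a group of 3 libraries and the labels do not explain the numbers, so whether they mark a pairing stays unsettled. The time points of 72 and 12 h share no number, so their block rests on links through the other times. With 3 libraries a group and a biological coefficient of variation of 40%, small changes of low genes could not be seen.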
